A study of Mus musculus with 2 samples.

Results

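Accessible chromatin was examined around 9 genes of the type I interferon response in mouse hematopoietic stem cells: the receptor genes Ifnar1 and Ifnar2, the transcription factor genes Stat2, Irf9, Irf1, Irf2 and Irf7, and the interferon-induced genes Oasl2 and Isg15. The genes were chosen by name from 21887 protein-coding genes, and each was read as a window of its gene body and 50 kb on each side. The windows held 35 of 13012 accessible regions of the H1C library and 77 of 31843 of the control library. Stem cells of the surface phenotype CD48-CD150+LSK came from bone marrow of wild-type C57BL/6J mice and transduced with the MSCV-H1C retrovirus (H1C overexpression, called H1C here) or with empty pMSCV (control). The linker histones, to which H1C belongs, sit on the outside of the nucleosome and help to compact chromatin. About 1000 cells entered each library, and open DNA was tagged by a transposase and sequenced (ATAC-seq). Each group held 1 library, so no difference given here has a replicate check and no test between the groups was possible. The retrovirus was itself present in both groups, and the labels used here give no ages or animal numbers.

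Type I interferons bind a receptor built from the IFNAR1 and IFNAR2 chains, which starts the phosphorylation of STAT proteins, STAT2 among them. STAT2 and IRF9 are part of a complex that binds the interferon-stimulated response element, a DNA sequence in the promoters of genes such as Isg15 and the Oas family, while other STAT complexes bind a shorter element known as GAS. Interferon drives quiescent hematopoietic stem cells into cycle, and IRF2 is known in mice to restrain that response in them.

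The sequences that carry these elements are shown for the promoters on which the results turn, from the RefSeq promoter table of GRCm38.p6, the build named mm10 in the deposited data. Each window runs 5′ to 3′ on the strand of its gene, from 250 bases before the start of its promoter entry to 50 after. Capitals mark matches to the response element, searched as GAAANNGAAA, or to GAS, searched as TTCNNNGAA, on both strands. Over all 21263 promoter windows of protein-coding genes, 3.35% held a GAAANNGAAA match and 7.69% a TTCNNNGAA match. A match describes letters and not a bound site. The windows of Stat2 (chr10:128270248-128270547, plus strand) and Irf2 (chr8:46739495-46739794, plus strand) lay largely inside regions called in both libraries. The window of Irf7 (chr7:141266375-141266674, minus strand) overlapped a region called in control alone, and that of Isg15 (chr4:156200769-156201068, minus strand) overlapped none. In Stat2 the response element match begins 222 bases before the start. In Irf2 the earlier capitals are the response element, from 241 bases before the start, and the later ones GAS, from 224. In Isg15 the capitals are 3 overlapping response element matches in a run of 22 bases that begins 78 bases before the start. Irf7 held no match to either motif, and neither did the windows of Irf9 and Oasl2.
Stat2: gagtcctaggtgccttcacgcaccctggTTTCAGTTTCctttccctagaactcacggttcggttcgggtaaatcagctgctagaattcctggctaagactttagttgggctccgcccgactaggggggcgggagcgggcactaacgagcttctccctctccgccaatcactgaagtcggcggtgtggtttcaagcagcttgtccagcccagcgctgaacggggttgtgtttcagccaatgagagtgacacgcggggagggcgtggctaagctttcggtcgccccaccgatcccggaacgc
Irf2: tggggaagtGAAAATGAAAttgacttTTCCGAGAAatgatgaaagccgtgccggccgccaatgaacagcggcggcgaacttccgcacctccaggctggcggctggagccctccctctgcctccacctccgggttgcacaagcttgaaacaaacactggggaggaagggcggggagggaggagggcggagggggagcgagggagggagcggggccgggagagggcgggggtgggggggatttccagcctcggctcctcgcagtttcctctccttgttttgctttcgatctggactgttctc
Irf7: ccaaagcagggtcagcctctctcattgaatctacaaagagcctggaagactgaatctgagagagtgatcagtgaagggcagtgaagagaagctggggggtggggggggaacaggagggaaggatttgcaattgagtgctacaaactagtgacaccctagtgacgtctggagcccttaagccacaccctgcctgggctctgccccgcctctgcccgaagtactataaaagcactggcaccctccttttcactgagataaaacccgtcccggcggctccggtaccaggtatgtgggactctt
Isg15: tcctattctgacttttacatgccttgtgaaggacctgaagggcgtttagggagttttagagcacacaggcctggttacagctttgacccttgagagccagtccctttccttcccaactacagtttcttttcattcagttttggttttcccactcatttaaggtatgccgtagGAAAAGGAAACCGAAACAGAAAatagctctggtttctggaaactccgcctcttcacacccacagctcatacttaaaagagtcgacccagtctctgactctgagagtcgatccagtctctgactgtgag

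GAS matches alone stood in the promoters of Ifnar1, Ifnar2 and Irf1, shown as 30 bases each from chr16:91485200-91485229, chr16:91372559-91372588 and chr11:53769914-53769943, all on the plus strand. The Ifnar1 match began 5 bases before that start, which lies inside the gene bounds used here, and the Irf1 match began 90 bases before its start, and both lay inside regions called in both libraries. The Ifnar2 match began 214 bases before its start, outside the control region there.
Ifnar1: ggcgggggcgTTCACGGAAggggcggggcg
Ifnar2: tgccaaggccTTCCTGGAAgaagagagtac
Irf1: acagcctgatTTCCCCGAAatgatgaggcc

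The lists give, for each accessible region, the authors' fold of the summit over the local background and a Poisson p. From these the summit pileup, the number of reads or fragments stacked at the highest point, was solved. The lists themselves give no read totals. The genome-wide background per position, which goes with depth, was 4.40 in H1C and 3.99 in control, a ratio of 1.10. By that measure H1C was not the shallower library, although the ratio of local backgrounds, taken at shared summits, was 0.869. The lowest pileup listed was 14 in H1C and 12 in control. Every log2 ratio sets the H1C pileup over the control pileup after scaling for that 1.10, with a 95% interval that covers counting error only. A control region was called kept where an H1C region overlapped it by at least 1 bp. Of 12 stem cell marker genes, 0 had an accessible region within 1 kb of either end in H1C and 5 in control (Kit, Ly6a, Slamf1, Hlf and Meis1), beside 7351 of all 21887 protein-coding genes in H1C and 10264 in control. Procr, Mecom, Gata2, Cd34, Fgd5 and Hoxa9 were among those with none in either. Markers of plasmacytoid dendritic cells, a source of interferon, were open at 2 of 4 genes in H1C and 3 of 4 in control, with Siglech, the defining one, in neither. Myeloid markers were open at 1 of 6 genes in H1C and 3 of 6 in control, and lymphoid markers at 1 of 6 in H1C and 4 of 6 in control. Erythroid and megakaryocyte markers were open at 0 of 5 in H1C and 1 of 5 in control, and mast cell markers at 0 of 3 in each. Endothelial and stromal markers were open at 0 of 4 in H1C and 2 of 4 in control, and markers from outside the blood at 0 of 3 in H1C and 2 of 3 in control. The part of other cell types in the results was not tested. In a bulk library, fewer cells with an open region and less cutting in each cell cannot be told apart.

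Fewer regions were called around the interferon genes in H1C than in control, as over the whole genome. The 4 shares given here each lay above the genome-wide one, with wide intervals. Of their 77 control regions 33 were kept in H1C (42.9%, Clopper-Pearson 95% interval 31.6 to 54.6), against 34.1% of all control regions. Of their 35 H1C regions 33 overlapped a control region (94.3%, 80.8 to 99.3), against 85.0% of all H1C regions. At the ends of the 9 genes themselves, 7 of 11 control regions were kept (63.6%, 30.8 to 89.1), against 62.9% of all control regions within 1 kb of an end of a protein-coding gene. Away from all gene ends, 14 of 43 were kept (32.6%, 19.1 to 48.5), against 20.7% over the genome. Each of these 4 intervals holds its genome-wide share, so none is a result about the interferon genes.

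**Figure D1:**
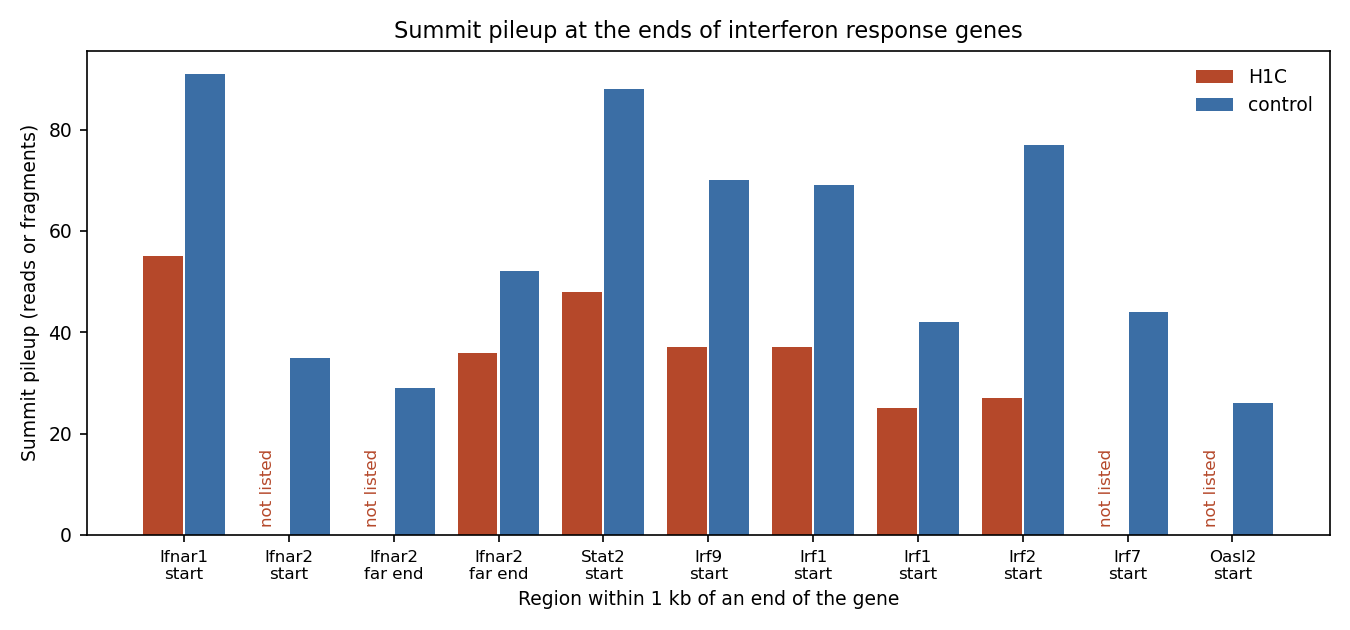
Summit pileup (reads or fragments) in H1C and in control at the 11 control regions within 1 kb of an end of an interferon response gene, 1 library per group and no error bar. The 7 regions called in both libraries had H1C pileups of 25 to 55 against control pileups of 42 to 91, and the 4 marked as not listed were called in control alone.

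**Figure D2:**
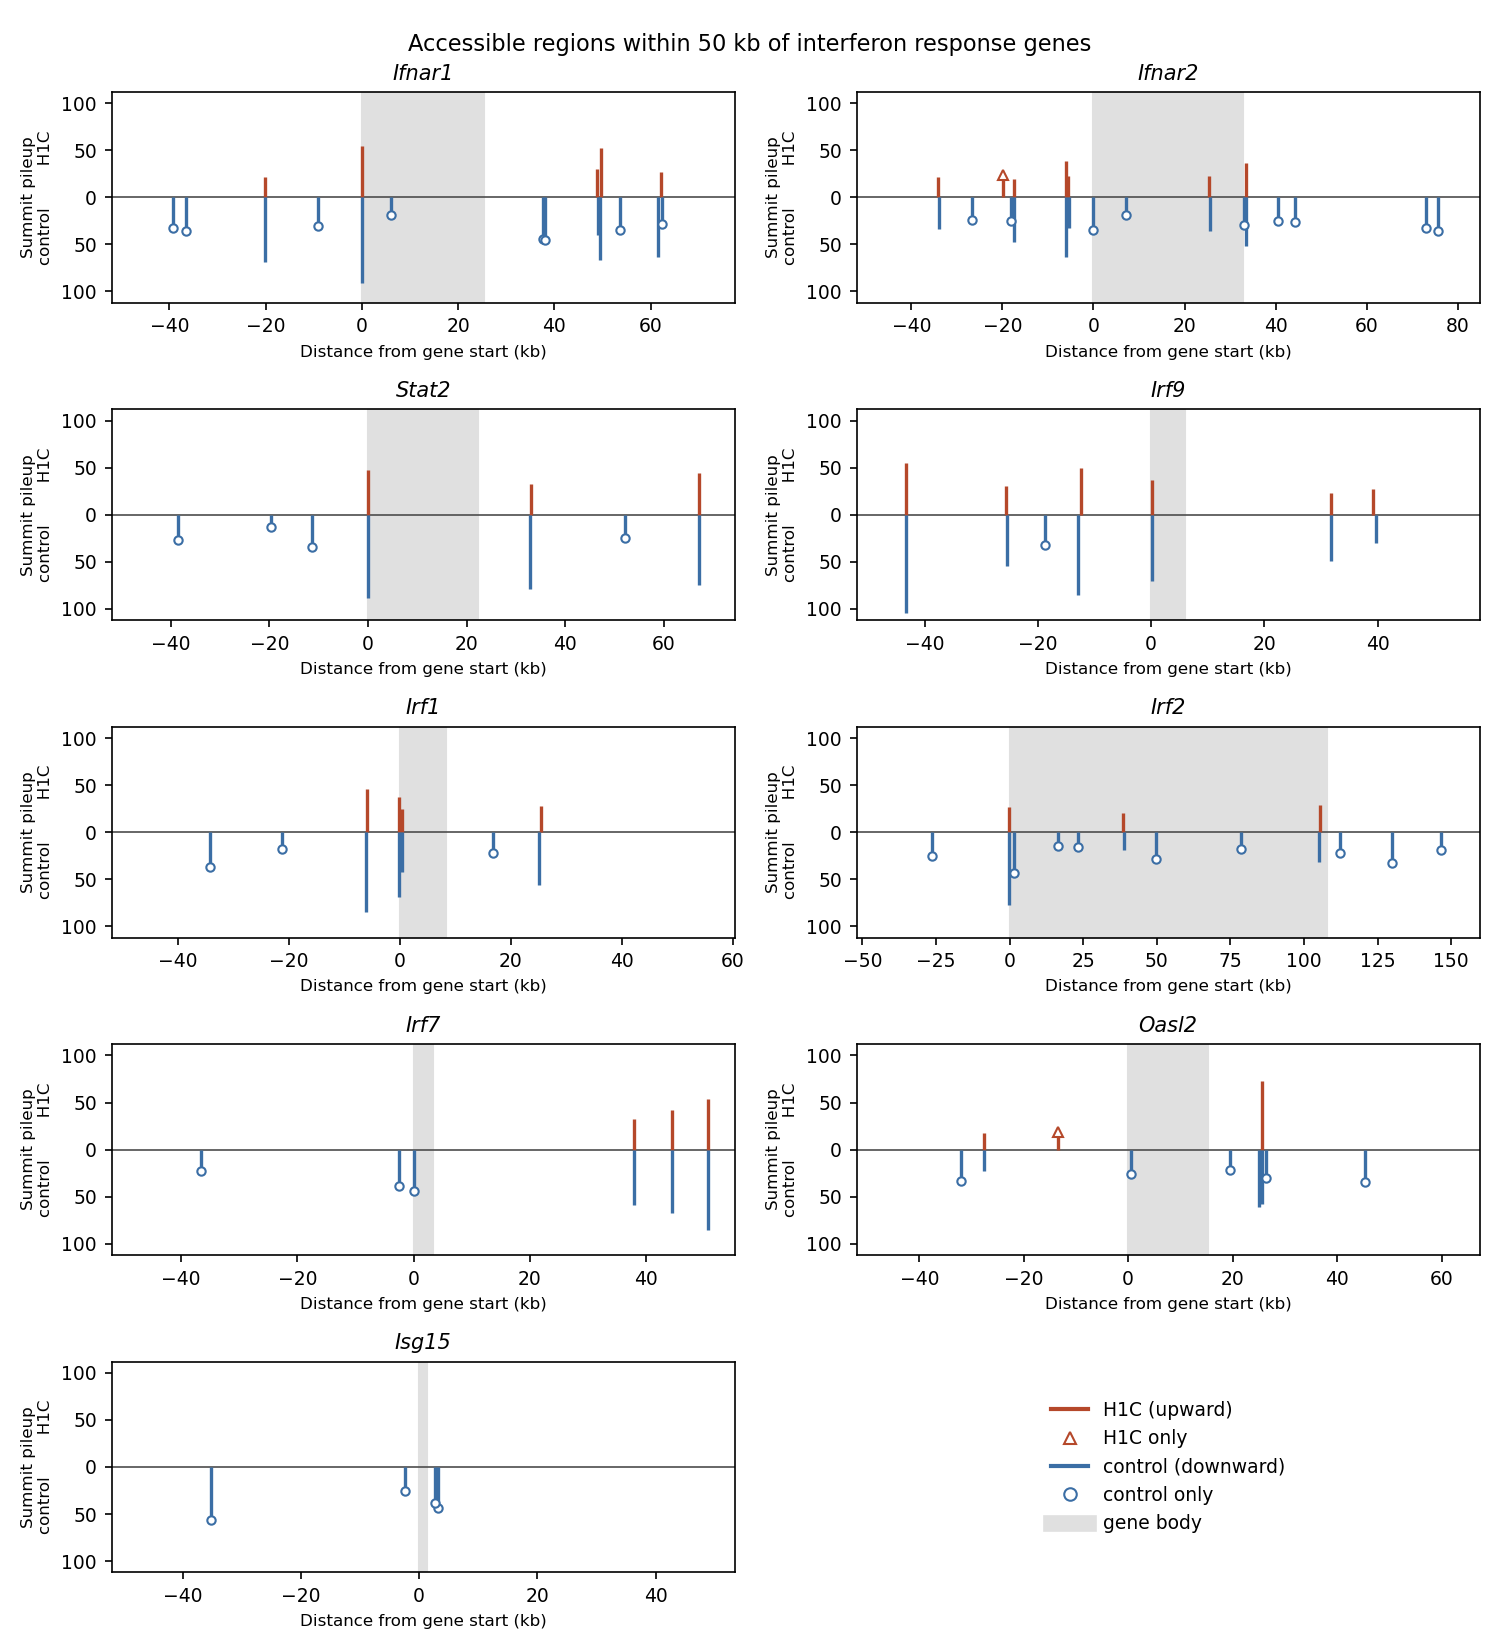
Summits of accessible regions in each window by distance from the gene start (kb), with the H1C pileup drawn upward and the control pileup downward, open symbols for regions called in 1 library alone and grey for the gene body. Open symbols are mostly short control lines, and the Isg15 window holds no H1C line.

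The plot of pileups at the gene ends shows the same order in all 7 pairs, with H1C under control, and the maps place those regions among their neighbours.

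The 2 receptor genes lie side by side on chromosome 16 and differed in what was kept at their starts. Ifnar1 (chr16:91485032-91510523, plus strand) encodes the chain that carries the kinase TYK2. Its start had a pileup of 55 in H1C and 91 in control, with folds of 8.24 in H1C and 10.5 in control and summits 17 bp apart. The log2 ratio was -0.87 (-1.38 to -0.37), close to the median of -0.84 over all 6385 shared gene-end regions. Ifnar2 (chr16:91372783-91405589, plus strand) encodes the chain that binds interferon most tightly. Its start had a control region (chr16:91372670-91373336) with a pileup of 35 and a fold of 5.06, and no region was listed there in H1C. To reach the lowest p of the H1C list, an H1C summit would have needed a pileup of 18 with the local background of control scaled up by 1.10, of 16 with it scaled by 0.869, and of 14 at the genome background. At all 7 member ends called in both libraries the local background was lower in H1C than in control. The absence places the H1C pileup under about such a height and not at 0.

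The far end of Ifnar2 lies at the start of Il10rb, a chain of the interleukin-10 and interferon lambda receptors. That shared end had a pileup of 36 in H1C and 52 in control (log2 ratio -0.67, -1.33 to -0.03), the highest ratio among the ends of the 9 genes. A second control region beside it (chr16:91405658-91405857), with a pileup of 29, had none in H1C. Across the windows, 5 of 13 control regions were kept around Ifnar1 and 6 of 15 around Ifnar2, with 2 control-only regions lying in both windows.

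Away from their own ends the receptor windows held some of the widest differences between regions. A region 20 kb upstream of Ifnar1 (chr16:91464708-91465212) had a pileup of 22 in H1C and 69 in control, the lowest log2 ratio of the 33 shared regions (-1.79, -2.55 to -1.08). In the same window a region downstream of the gene (chr16:91534504-91534768) had pileups of 53 in H1C and 67 in control (-0.48, -1.03 to 0.06). The 95% intervals of these neighbours do not overlap, but the downstream region was picked after its value was seen. The strongest control-only region of the Ifnar1 window by fold (chr16:91475876-91476181) had a pileup of 30 and a fold of 5.68. Ifngr2, the second chain of the interferon gamma receptor, begins in this window and had pileups of 27 in H1C and 63 in control (-1.36, -2.07 to -0.69). These summits lay 490 bp apart, so the ratio does not compare like positions. Upstream of Ifnar2 the strongest shared region (chr16:91366618-91366992) had 39 in H1C and 63 in control (-0.83, -1.45 to -0.24), and the strongest control-only one away from the gene (chr16:91448251-91448516) had a pileup of 36 and a fold of 4.06. The H1C-only region of this window (chr16:91352837-91353050), 19733 bp from the gene, had a pileup of 24 and a fold of 3.60.

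Of the genes for the complex that carries the signal to DNA, Stat2 and Irf9 had a start region in both libraries, at H1C pileups of 48 and 37. Stat2 (chr10:128270498-128292853, plus strand), whose start lies at an end of Apof, had a pileup of 48 in H1C and 88 in control. Its fold was 6.64 in H1C and 11.2 in control, the highest control fold among the ends of the 9 genes. Its summits lay 2 bp apart, and its log2 ratio was -1.02 (-1.56 to -0.49). Irf9 (chr14:55603985-55610030, plus strand), the DNA-binding subunit, shares its start with the end of Rnf31 and had 37 in H1C and 70 in control (-1.06, -1.68 to -0.47). Among regions of like control pileup (within 5), 162 of 490 had a lower ratio than Stat2 and 287 of 956 a lower ratio than Irf9, so neither stood at an edge.

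Around Irf9, in a cluster of short genes, 6 of 7 control regions were kept, and all 7 lay at gene ends, where 62.9% were kept over the genome. They included Psme1 and Psme2, interferon-induced subunits of the proteasome activator. Psme1 had 31 in H1C and 54 in control, and Psme2 had 50 in H1C and 85 in control, with the Psme2 summits 518 bp apart. The strongest of the window by fold, at Dcaf11, had 55 in H1C and 104 in control (-1.06, -1.56 to -0.58), and the control-only region, at Emc9, had a pileup of 32. Around Stat2, 3 of 7 were kept, those at Stat2, Pan2 and Cs, and 2 of the 7 lay away from gene ends. Cs, the citrate synthase gene, had 44 in H1C and 75 in control (-0.91, -1.48 to -0.36), and the strongest control-only region (chr10:128258924-128259287), upstream of Stat2, had a pileup of 34 and a fold of 6.32.

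Irf1 and Irf2 encode an activator and a mostly repressing factor for the same element, and both had a start region in each library. Irf1 (chr11:53770014-53778374, plus strand) kept both of its start regions. The one over the start had 37 in H1C and 69 in control (-1.04, -1.66 to -0.44), with its control summit 37 bp from the GAS match shown above. The one inside the gene (chr11:53770287-53770799) had 25 in H1C and 42 in control (-0.89, -1.67 to -0.14). The strong region upstream of Irf1 (chr11:53763396-53764216) had 46 in H1C and 85 in control (-1.03, -1.58 to -0.49). The strongest shared one by fold (chr11:53794873-53795554), downstream, had 28 in H1C and 56 in control (-1.14, -1.85 to -0.46). Its summits lay 349 bp apart, so its ratio does not compare like positions. These 4 log2 ratios run from -1.14 to -0.89, and each lies inside the intervals of the others. The control-only region with the highest fold in this window (chr11:53735691-53735921) had a pileup of 37.

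Irf2 (chr8:46739745-46847458, plus strand) had the lowest ratio among the ends of the 9 genes. Its start had a pileup of 27 in H1C and 77 in control, a log2 ratio of -1.65 (-2.34 to -1.005). The H1C region was 255 bp wide and the control region 583 bp, with summits 18 bp apart. Of 6385 shared gene-end regions 14 had a lower ratio, and of 805 with a like control pileup 3 did. It was singled out after its value was seen, as the lowest of 7, and its interval reaches to -1.005, near the lower quartile of all such regions (-1.04). A second control region starts 1176 bp from the gene start (chr8:46740921-46741399), just outside the 1 kb bound, with a pileup of 43, and was not listed in H1C. Deeper in the gene the shared regions were weak and nearly equal, with 20 in H1C and 19 in control (chr8:46778168-46778575) and 29 in H1C and 32 in control (chr8:46844663-46845352). The summits of the second pair lay 323 bp apart. For weak control regions a ratio can be had only if H1C came out high enough to be called, which favours high ratios there. In all, 3 of 12 control regions in this window were kept, and the control-only one with the highest fold (chr8:46869507-46869824) had a pileup of 33 and a fold of 6.01.

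Irf7 (chr7:141263183-141266499, minus strand), the factor that amplifies interferon production, had a region at its start in control alone (chr7:141265931-141266610). Its pileup was 44 and its fold 3.89, over a local background of 10.6. To be listed, an H1C summit would have needed a pileup of 26 with that background scaled up by 1.10, of 22 with it scaled by 0.869, and of 14 at the genome background. Which of these holds is not known, so whether the difference at Irf7 was larger than at the kept genes cannot be told. Beside it, the region at Cdhr5 (pileup 39) was also called in control alone. All 3 kept regions of the window lay in the downstream flank, with Lmntd2 and Rassf7 at 54 in H1C and 85 in control (-0.80, -1.32 to -0.29) and Phrf1 at 32 in H1C and 59 in control (-1.02, -1.69 to -0.38). The control-only region of the window with the highest fold (chr7:141302908-141303138) had a pileup of 23 and a fold of 4.15.

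The induced genes Oasl2 and Isg15 had no region at their ends in H1C. Oasl2 (chr5:114896926-114912245, plus strand), which encodes a relative of the 2′-5′ oligoadenylate synthetases, had a control region inside the gene (chr5:114897293-114897752) with a pileup of 26 and a fold of 5.41. An H1C pileup of 14 would have sufficed for a listing there. Isg15 (chr4:156199424-156200818, minus strand), which encodes a ubiquitin-like protein joined to other proteins after interferon, had no region at its ends in either library, as did 11560 of all protein-coding genes (52.8%). Its window was the only window of the 9 with no H1C region at all. The 4 control regions there lay at Agrn (pileups 44 and 38), Perm1 (26) and Klhl17 (56, fold 6.77). The Agrn region with a pileup of 38 lay 1176 bp from the far end of Isg15, just outside the 1 kb bound. Among 2262 genes with 4 control regions in their window, 211 (9.33%) had none in H1C.

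The H1C region with the highest pileup of all the windows lay between Oasl2 and its relative Oasl1, and it was not lower than control. A single H1C region (chr5:114921897-114922676) had a pileup of 73 and a fold of 8.22. It spanned 2 control regions, at chr5:114921783-114922225 with a pileup of 61 and a fold of 5.86, and at chr5:114922371-114922656 with a pileup of 58 and a fold of 5.53. The H1C summit lay 1 bp from the summit of the second and 568 bp from that of the first, so the first ratio does not compare like positions. The log2 ratios were 0.12 (-0.39 to 0.63) and 0.19 (-0.33 to 0.71). No depth scaling and scaling by local background both raise every ratio, so neither could have brought these below 0. Of 4147 shared gene-end regions with a control pileup of at least 50, these were the only 2 at or above 0, while away from gene ends 43 of 1296 were. A further control region (chr5:114923135-114923358), over the start of Oasl1 itself, had a pileup of 30 and none in H1C.

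The sequence beside this summit is shown because parts of it recur in other promoter windows. It is the promoter window of Gm13822, a noncoding RNA gene that runs away from Oasl1. The window (chr5:114922212-114922511, minus strand) ends just short of the H1C summit and has no match to either motif. The rest of the H1C region is not shown.
Gm13822: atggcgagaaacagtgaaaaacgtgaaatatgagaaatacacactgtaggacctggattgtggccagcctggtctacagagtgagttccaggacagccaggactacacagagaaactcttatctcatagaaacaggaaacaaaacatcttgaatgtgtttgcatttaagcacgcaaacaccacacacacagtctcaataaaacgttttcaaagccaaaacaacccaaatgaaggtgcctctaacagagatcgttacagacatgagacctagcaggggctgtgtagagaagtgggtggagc

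Of 32850 other promoter windows, 47 shared a word of 20 bases with that window, against 0 to 2 for the promoter windows of 8 of the 9 genes and 50 for Oasl2. The control background under the region was 9.58, against a genome background of 3.99. At the ends of the 9 genes the control background ran from 3.99 at Oasl2 to 12.3 at Irf1, a range that holds 9.58. The part of reads from other copies in the pileup of the H1C region was not tested. In the same window the H1C-only region (chr5:114883340-114883539) lay at an end of 4930519G04Rik with a pileup of 19 and a fold of 3.70, and the strongest control-only region by fold, at 2210016L21Rik, had a pileup of 35 and a fold of 6.41.

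**Figure D3:**
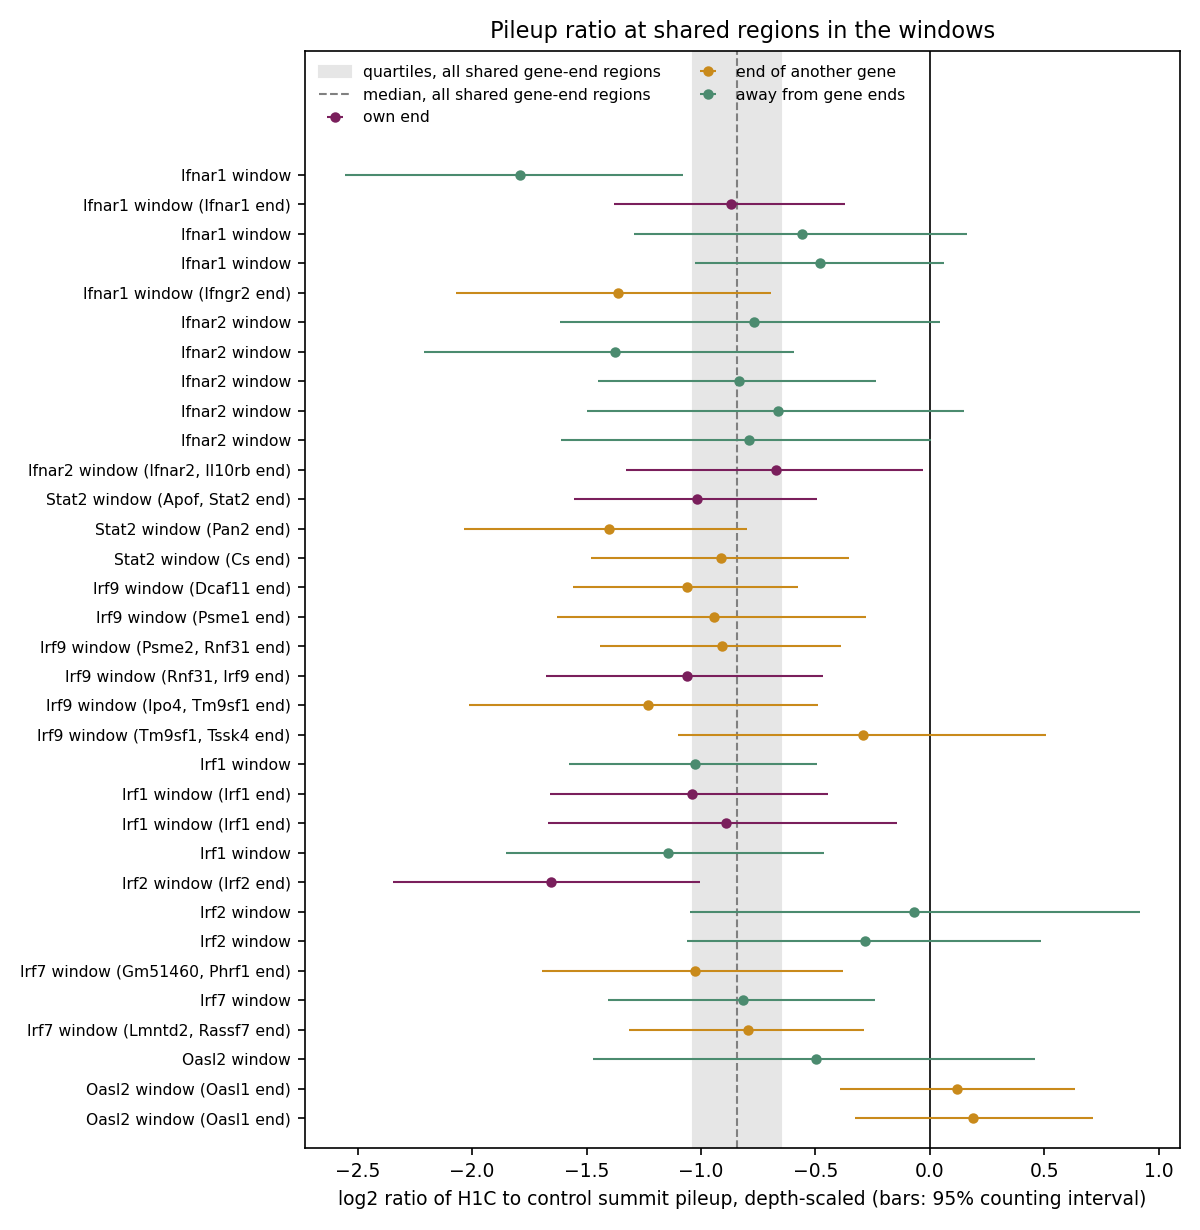
Summit pileup of H1C over control, as a depth-scaled log2 ratio, at the 33 control regions kept in the windows, with 95% counting intervals, colored by position, beside the median (-0.84) and quartiles (-1.04 and -0.65) of all shared gene-end regions. Of the 33 ratios 31 lie below 0, and the 2 above 0 are the Oasl1 regions, which share 1 H1C summit.

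The plot of ratios by region shows most intervals crossing the band of all shared gene-end regions. At the ends of the 9 genes the median log2 ratio was -1.02 over 7 regions (quartiles -1.05 and -0.88), and 7 of 7 lay below 0. Over all shared gene-end regions the median was -0.84 (quartiles -1.04 and -0.65), and 98.9% lay below 0, so the direction at the interferon genes is that of nearly every gene-end region called in both libraries. The median control pileup was 70 at the ends of the 9 genes and 57 over all. Over the 4147 shared gene-end regions with a control pileup of at least 50, the median log2 ratio was -0.91. Scaled by the local background the median was -0.67 at the ends of the 9 genes and -0.50 over all, and with no scaling -0.87 at those ends and -0.70 over all. Regions were also narrower in H1C, with a median width of 338 bp in H1C and 583 bp in control at these ends, against 392 bp in H1C and 597 bp in control over all shared gene-end regions. Summit positions moved little, by a median of 18 bp at the interferon genes and 25 bp over all.

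Control regions of high pileup were kept and most of low pileup were not. In the windows, 7 of 7 gene-end regions with a control pileup above 60 and up to 80 were kept and 5 of 5 above 80, and away from gene ends 4 of 4 and 1 of 1. Of those above 40 and up to 60, 6 of 9 were kept at gene ends and 2 of 5 away from them, against 83.5% and 61.5% over the genome. Of those above 30 and up to 40, 0 of 5 were kept at gene ends and 5 of 12 away, against 46.0% and 26.7%. Of those above 20 and up to 30, 1 of 8 was kept at gene ends and 1 of 12 away, against 18.97% and 12.4%. The intervals are wide, and each holds its genome-wide share.

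**Figure D4:**
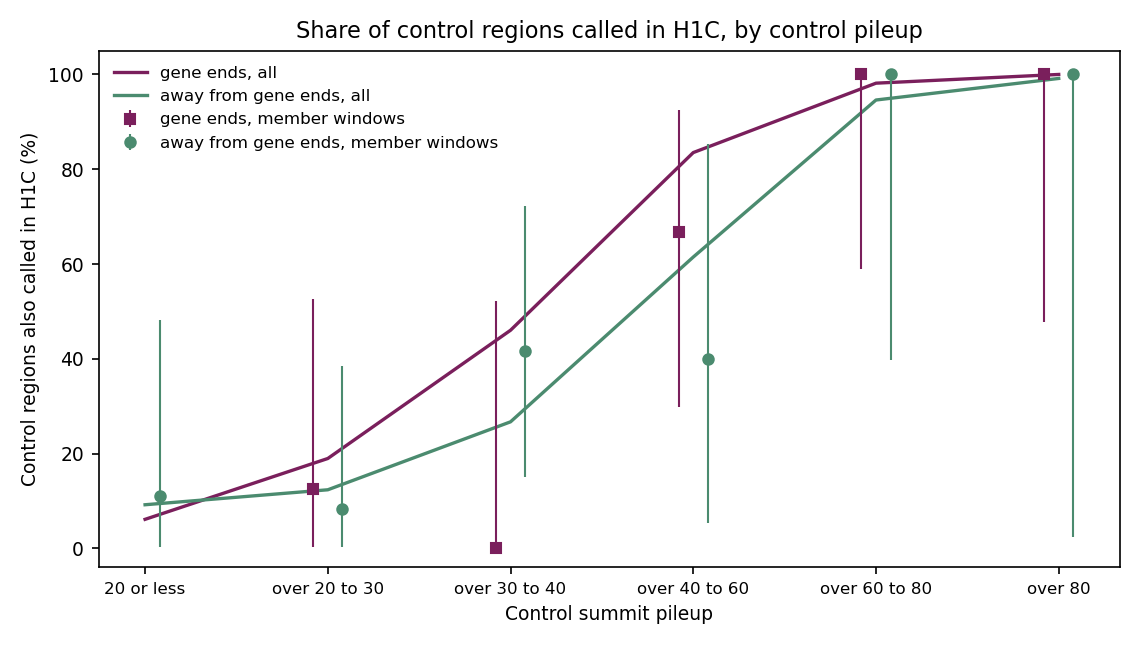
Share of control regions also called in H1C (%) by bin of control summit pileup, as lines for all gene-end regions and all other regions and as points with 95% Clopper-Pearson intervals for the windows of the 9 genes. The lines climb from 6.13% and 9.21% at pileups of 20 or less to 100% and 99.2% above 80, while the points, from 1 to 12 regions each, do not climb at every step.

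The wider interferon pathway was read from a list of 65 other receptor, kinase, factor, sensor and induced genes, of which 63 were protein coding in the annotation. A control gene-end region was present at 56 of them, and 36 of the 56 were kept (64.3%, 50.4 to 76.6), against 71.0% of all protein-coding genes with such a region, a share inside that interval. Control alone had 20 genes, and H1C alone had 0. Ikbke, Ifi44, Ifitm1, Oas1a, Adar and Irgm1 were among those with a region in neither. The median log2 ratio of the 36 kept genes was -0.95 (quartiles -1.11 and -0.62), with 35 below 0. Psmb9 and Tap1 were counted with the same region, and that of Il10rb is also the kept end of Ifnar2. Kept genes had a median control pileup of 57.5 (25 to 103) and control-only genes one of 33 (20 to 69).

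All 3 receptor kinase genes kept their ends, at control pileups where most gene-end regions of the genome were kept. Those shares were 83.5% above 40 and up to 60 (Jak1), 98.2% above 60 and up to 80 (Jak2) and 100% above 80 (Tyk2). Being kept therefore does not set these 3 genes apart. Jak1 had 28 in H1C and 57 in control (-1.17, -1.87 to -0.49), Jak2 had 31 in H1C and 61 in control (-1.12, -1.79 to -0.47), and Tyk2 had 40 in H1C and 82 in control (-1.18, -1.76 to -0.62). Ifngr1, the ligand-binding chain of the interferon gamma receptor, had 60 in H1C and 98 in control (-0.85, -1.34 to -0.37). The negative regulators Socs1 (65 in H1C and 103 in control) and Usp18 (32 in H1C and 60 in control) were kept, at log2 ratios of -0.81 and -1.05.

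Among the other IRF genes, Irf3 and Irf4 were kept and Irf5 and Irf8 were called in control alone. Irf3, the factor that starts interferon production, had 33 in H1C and 51 in control (-0.77, -1.45 to -0.11), and Irf4 had 23 in H1C and 48 in control (-1.20, -1.99 to -0.46). Irf8, a factor of myeloid and dendritic cells, had a control region with a pileup of 56 and a fold of 6.45. Of the IRF genes reported here, Irf1, Irf2, Irf3, Irf4 and Irf9 had a kept region, and Irf5, Irf7 and Irf8 had one in control alone.

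Sensors of viral RNA and DNA were divided. Mavs, the adaptor of the RNA sensors, had the highest fold of the list and was kept with 48 in H1C and 94 in control (-1.11, -1.64 to -0.60). The RNA sensors Ifih1 (control pileup 40, fold 6.51), Ddx58 (21) and Dhx58 (20), and the DNA sensor Cgas (34), were called in control alone. The nucleic acid sensor Zbp1 was kept, with 28 in H1C and 53 in control (-1.06, -1.78 to -0.38). The adaptor Sting1 (25 in H1C and 40 in control) and the kinase Tbk1 (30 in H1C and 41 in control), which act after the sensors, were kept as well. Of the neighbours Dtx3l and Parp9, which encode an interferon-induced ligase and its partner, Dtx3l had a control-only region with a pileup of 69 and a fold of 8.22 and Parp9 one with 46 and 5.47. The Parp9 region also covers an end of Dtx3l, so it belongs to both genes. Of all 1737 gene-end regions with a control pileup above 60 and up to 80, 98.2% were kept. Dtx3l was named for having the highest fold among the control-only genes of the list. Its place in the small minority not kept therefore follows from that choice.

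Induced effector genes spanned the range of ratios. Ifi27 had 24 in H1C and 68 in control (-1.64, -2.38 to -0.95), the lowest of the list, and Ifi35 had 27 in H1C and 60 in control (-1.29, -2.01 to -0.62). At the other end was the Oasl1 region described above (0.12), which lies upstream of the Oasl1 start and does not compare like summit positions. The region over that start was called in control alone. Rsad2, which encodes the antiviral enzyme viperin, had 38 in H1C and 41 in control (-0.25, -0.93 to 0.42). The region shared by Psmb9 and Tap1, genes of antigen presentation, had 59 in H1C and 71 in control (-0.41, -0.93 to 0.11). Ifit1 (19 in H1C and 29 in control), Ifit2 (22 in H1C and 44 in control) and Oas3 (26 in H1C and 50 in control) were kept, while Ifit3 (control pileup 22), Ifitm3 (33), Oas2 (33), Eif2ak2 (25) and Gbp2 (27) were called in control alone. In the Ifit cluster the kept genes thus had the higher control pileups. Genes named here beyond those of highest fold were chosen after their values were seen.

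**Figure D5:**
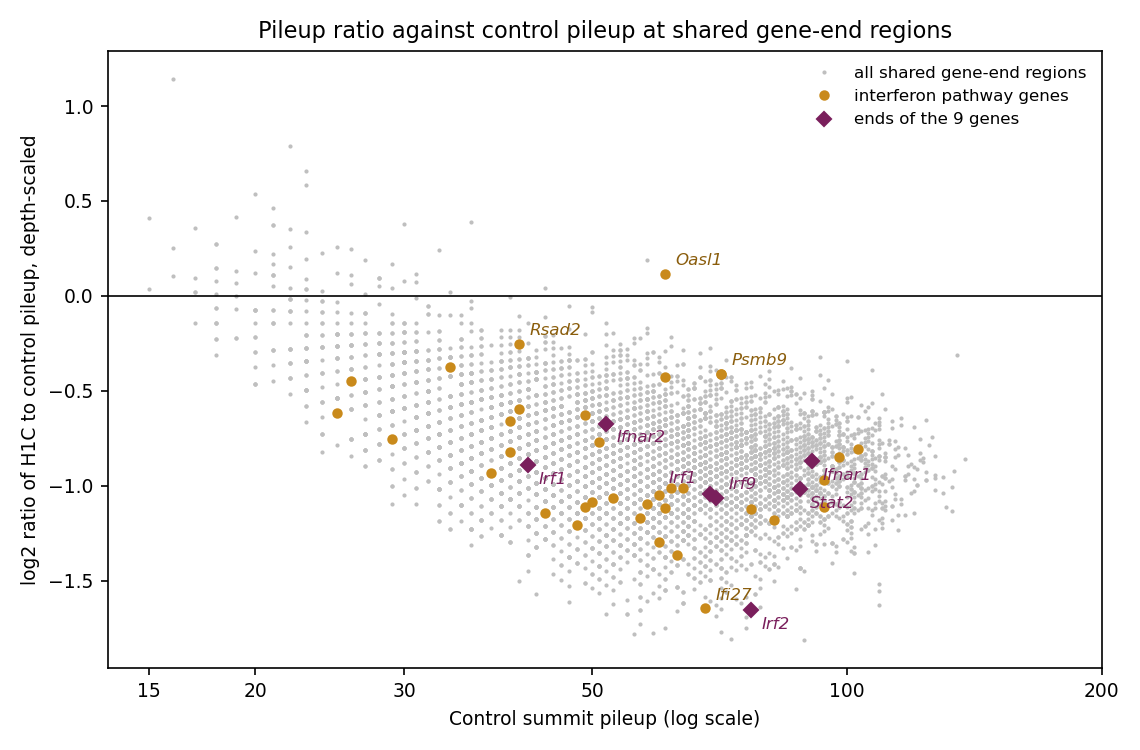
Pileup of H1C over control, as a depth-scaled log2 ratio, against control summit pileup (log scale) at 6385 shared gene-end regions, with the kept pathway genes as circles and the ends of the 9 genes as diamonds. Irf2 (-1.65) and Ifi27 (-1.64) lie at the lower edge of the cloud. The region upstream of the Oasl1 start (0.12) lies above regions of like control pileup, though weaker regions reach higher.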

How the data were processed

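Transposase-tagged libraries (ATAC-seq) of 2 samples, H1C and control, were read from 1 deposited list of accessible regions per library, called per sample. The submitters' processing notes name the build mm10 and, as tools, MACS2, featureCounts, Picard, Bowtie2 2.2.9 and Trim Galore 0.4.4. Their roles and settings, the handling of duplicate reads and any cut-site shift are not given in the sources used here, and each could alter pileups and summit positions. The deposited fold of each entry is a ratio of summit pileup to local background, each with 1 added. The −log10 p and −log10 q values as deposited are those of the authors' peak caller, the deposited score is −log10 q times 10 without its decimals for 99.96% or more of entries, and the deposited summit is an offset in bp.

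Pileup and background were solved from fold and Poisson p. A whole pileup, at a relative tolerance of 0.0001, resulted for 13155 of 13156 H1C and 32005 of 32005 control entries. Touching entries on chromosomes 1 to 19, X and Y were merged. Gene bodies, strands and promoter windows came from RefSeq tables of GRCm38.p6, which gave no exons. All 9 genes matched, and of the 65 pathway genes 63 did, Tmem173 and Mb21d1 through their newer symbols Sting1 and Cgas, while Mx1 and Mx2 were not protein coding there. Shares have Clopper-Pearson 95% intervals and pileup ratios have conditional binomial ones. They cover counting error alone, and amplified fragments are not independent molecules. The solver and the overlap steps were tested on simulated data. The work was done in Python 3.11.15 with scipy 1.17.1, pandas 2.3.3, numpy 2.4.6 and matplotlib 3.10.9.

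The genes, lists and tests were chosen with earlier results of these data known. All 9 genes were named, with every region at their ends, and from each window the control-only, H1C-only and shared region with the highest fold. Of the pathway list up to 4 control-only and 4 kept genes were named by control fold. Some listed genes are counted but not reported by name here. Alternatives changed the threshold, the list length, the overlap rule, the flank, the gene-end distance and the depth scaling.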

Additional observations from a re-analysis of the deposited data

How the results depend on the processing

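No paired analysis was possible because H1C and control were 1 library each. Recomputing the 6 results gave 42 alternative values, of which 31 lay inside the interval or quartiles of the reported value and 11 did not. A change of sign was possible for the log2 ratio alone, which stayed below 0 in its 6 alternatives. With the same number of entries from each list, 63.6% of control regions in the windows were kept, 55.6% of those away from gene ends and 78.6% of pathway genes, and 80% of H1C regions overlapped control. With 50% reciprocal overlap the share kept was 31.2% in the windows and 50% of pathway genes, and 68.6% of H1C regions overlapped control. That H1C share was 74.3% with summits within 200 bp of each other and 100% with a flank of 0 kb. Genome-wide shares are not given for the changed list length and overlap rules. The values under those settings therefore cannot be set beside the genome-wide shares above. The median log2 ratio at the ends of the 9 genes was -0.67 when scaled by local background and -0.87 with no scaling. Equal list lengths drop weak control entries by construction, and otherwise the cause was not tested. With 11 regions at the ends of the 9 genes, a kept share cannot be placed more closely than 30.8 to 89.1%. An absent region in H1C bounds its pileup and does not measure it.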

Other observations

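Promoter windows with and without the motifs were compared over all protein-coding genes. Of 713 windows with GAAANNGAAA, 264 overlapped a control region, and 178 of these overlapped an H1C region as well (67.4%, Clopper-Pearson 95% interval 61.4 to 73.0). Of 1636 windows with TTCNNNGAA, 602 overlapped a control region and 418 were kept (69.4%, 65.6 to 73.1). Of 19023 windows with neither motif, 8372 overlapped a control region and 6246 were kept (74.6%, 73.7 to 75.5). The median control pileup was 42, 48 and 50 in the same order, and its part in the kept shares was not tested. The median log2 pileup ratio was -0.81, -0.86 and -0.85. These counts were made after the member promoters had been read.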
